A study of Arabidopsis thaliana with 156 samples.

Results

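The 9 genes described here work in mitosis and DNA replication in Arabidopsis thaliana. They were taken by name from the annotation of the array, in a choice made with earlier results of these data known. They are the aurora kinase genes AUR1 (AT4G32830) and AUR2 (AT2G25880), the spindle checkpoint gene BUB3.2 (AT1G49910), the centromeric histone gene HTR12 (AT1G01370), the topoisomerase II gene TOPII (AT3G23890), the chromosomal protein gene 3xHMG-box2 (AT4G23800), the histone H2B gene HTB2 (AT5G22880), the primase subunit gene POLA3 (AT5G41880) and PRL (AT4G02060), also known as PROLIFERA or MCM7. These are 9 of the 10786 genes that the annotation names, and 9 of 9 were found, with 1 probe set each.

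Cells copy their DNA and then separate the copies. The MCM ring, of which PRL is a subunit, opens the helix at origins, primase starts the new strands, and new histones such as H2B wrap the product. In mitosis the centromeric histone marks where the spindle attaches, aurora kinases phosphorylate chromosomal proteins, the spindle checkpoint holds back separation until attachment is complete, and topoisomerase II untangles the copies. In a leaf these activities belong to the early phase of growth, since cells divide at the shoot apex and in the young primordium and growth by cell expansion follows.

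Every plant had a Col-0 background into which FRI of Sf-2 had been introgressed, so all groups carried functional FRI, an activator of the flowering repressor gene FLC. FRI;FLC plants had functional FLC as well, FRI;flc-3 plants carried a loss-of-function allele of it, and FRI;FLC;35S::miR156mimic plants were FRI;FLC plants with an RNA that sequesters miR156, driven by the broadly active 35S promoter. All grew on 16 h days, and the series asked how gene expression changes with plant age, leaf position and organ stage while the shoot is vegetative. The arrays fall into 53 groups, 51 of them with 3 arrays.

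Shoot apices, taken with their smallest primordia, were collected at days 4, 6, 9, 11, 14 and 21 for FRI;FLC, at days 4, 6, 9 and 11 for FRI;flc-3 and at day 6 for the mimic line (30 arrays). Each held a pool of 120 apices at days 4 and 6, 60 at day 9, 30 at days 11 and 14 and 24 at day 21. Primordia 1 mm long came from leaves 1/2, the first pair, at day 6 and from leaves 3, 5, 7, 9 and 11 at days 9, 11, 14, 16 and 18 of both genotypes (36 arrays, 30 primordia each or 60 of the first pair). The same positions were sampled as fully expanded leaves in both genotypes and 2 experiments (72 arrays, 9 leaves each or 18 for leaves 1/2). In FRI;flc-3 plants leaf 11 was cauline, borne on the flowering stem, both as primordium and as expanded leaf. The days of expanded leaves 1/2, 3, 5, 7, 9 and 11 were 14, 23, 26, 29, 33 and 33 for FRI;FLC in experiment 2 and the same in experiment 1, except day 34 for leaf 11. For FRI;flc-3 they were 14, 21, 24, 26, 30 and 30 in experiment 1 and 14, 23, 26, 29, 32 and 32 in experiment 2. Leaves 3, 5 and 7 past full expansion came from experiment 2 (18 arrays), all of day 33 for FRI;FLC and of day 32 for FRI;flc-3, so leaf 3 was older past its expansion than leaf 7. The primordia shared plants with experiment 1, and the apices were collected with experiment 2.

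All values are deposited log2 signals, so 1 unit is a doubling of signal, and a level of one gene is not set against that of another, since probe sets differ in response. Array medians lay between 6.40 and 6.92, and 10% of all values lay below 2.03. Arrays of a group correlated at a median of 0.992, and lowest, at 0.954, in FRI;FLC apices of day 6, a group of 2 arrays. The array of FRI;flc-3 apices of day 6 was the only one of its group. Within a group each array holds its own organ pool from 1 experiment, and p-values measure the spread between such pools. FLC itself was not analysed here. The mean level of 2 shoot meristem markers (CLV3 and UFO, 2 of 10 listed) per group ran from 2.13 to 4.15 in apices and from 1.44 to 1.88 in primordia and expanded leaves. For 3 young leaf markers (JAG, SPCH and MUTE, 3 of 8 listed) it ran from 4.62 to 5.53 in primordia and from 1.55 to 1.81 in expanded leaves, and for 2 mature leaf markers (RCA and SBPASE, 2 of 12 listed) from 12.46 to 13.03 in expanded leaves and from 12.30 to 12.88 in primordia.

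All 9 genes were higher in dividing organs than in grown leaves. In primordia against expanded leaves of experiment 1, AUR1 was higher by 6.41 ± 0.06 (SE) log2 units, AUR2 by 7.35 ± 0.07, 3xHMG-box2 by 8.22 ± 0.10 and TOPII by 7.32 ± 0.07. HTR12 differed by 5.47 ± 0.08, PRL by 4.88 ± 0.09, BUB3.2 by 4.49 ± 0.06, POLA3 by 3.59 ± 0.10 and HTB2 by 2.50 ± 0.06. Adjusted p was 3.6e-38 or less for each in limma (36 arrays against 36). Primordia and leaves did not overlap for any of the 9, and the share of all probe sets without overlap was not counted. Of all 19324 probe sets, 89.5% were called in this comparison at an adjusted p under 0.05 and 45.9% were called higher, and the median difference was 0.015 over all probe sets against 5.47 over the 9 genes. The slope of signal on log2 gene length ran from 0.42 to 0.64 in these primordia and from -0.33 to 0.42 in these leaves. At each position the expanded leaves were of a later day than the primordia, so organ stage went with plant age here.

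AUR1, a kinase of the early mitotic chromosomes and spindle, lay between 8.85 and 10.42 in the 30 apex arrays (median 9.99) and between 10.05 and 10.67 in the 36 primordium arrays (median 10.34). In the 72 arrays of fully expanded leaves it lay between 3.07 and 5.40 (median 4.07), and in the 18 arrays past full expansion between 2.74 and 4.60 (median 3.45). Every apex and primordium array was thus above every leaf array, and the ranges of the leaf stages overlapped. The paralogous kinase AUR2 lay between 9.51 and 11.07 in apices (median 10.53), between 10.26 and 10.98 in primordia (median 10.69), between 2.63 and 4.60 in expanded leaves (median 3.53) and between 2.56 and 4.40 past expansion (median 3.12). The order of the stages was that of AUR1. Their probe sets could share signal between such similar genes, which was not tested.

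TOPII, whose product decatenates sister DNA molecules, had a wide spread in apices, from 4.98 to 9.02 (median 7.47), and lay between 9.53 and 10.98 in primordia (median 10.33). Its highest apex array was below its lowest primordium array. In fully expanded leaves it lay between 2.35 and 4.26 (median 3.01). 3xHMG-box2, a protein with 3 HMG boxes that binds condensed mitotic chromosomes, lay between 7.26 and 11.28 in apices (median 10.05), between 11.00 and 12.15 in primordia (median 11.71) and between 2.14 and 6.50 in expanded leaves (median 3.63). Its apex and primordium arrays overlapped at the upper end of the apices.

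HTR12 and BUB3.2 had the opposite order in the dividing organs, with the median of the apices above that of the primordia. HTR12, the histone H3 variant of centromeres, lay between 9.04 and 11.12 in apices (median 10.22) and between 8.95 and 10.34 in primordia (median 9.75). BUB3.2, a WD-repeat protein related to the BUB3 checkpoint protein, lay between 6.40 and 8.42 in apices (median 7.46) and between 5.91 and 7.81 in primordia (median 6.76). Both pairs of ranges overlapped. In expanded leaves HTR12 lay between 2.60 and 6.14 (median 4.19) and BUB3.2 between 1.69 and 3.15 (median 2.48), the latter close to the level under which 10% of all values lay. Apices and primordia are of different experiments, so organ and experiment cannot be told apart in these orders, and they were not tested.

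PRL lay between 7.29 and 9.10 in apices (median 8.47), between 8.38 and 9.17 in primordia (median 8.76) and between 1.37 and 6.24 in expanded leaves (median 3.93). POLA3 lay between 7.20 and 8.90 in apices (median 8.12), between 8.11 and 9.85 in primordia (median 9.04) and between 2.75 and 7.72 in expanded leaves (median 5.38). HTB2 lay between 10.78 and 12.68 in apices (median 12.02), between 12.25 and 12.95 in primordia (median 12.58) and between 7.13 and 11.02 in expanded leaves (median 9.97). For POLA3, the highest leaf array was above the lowest apex array, while PRL did not overlap. For HTB2, the highest leaf array was likewise above the lowest apex array.

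**Figure D1:**
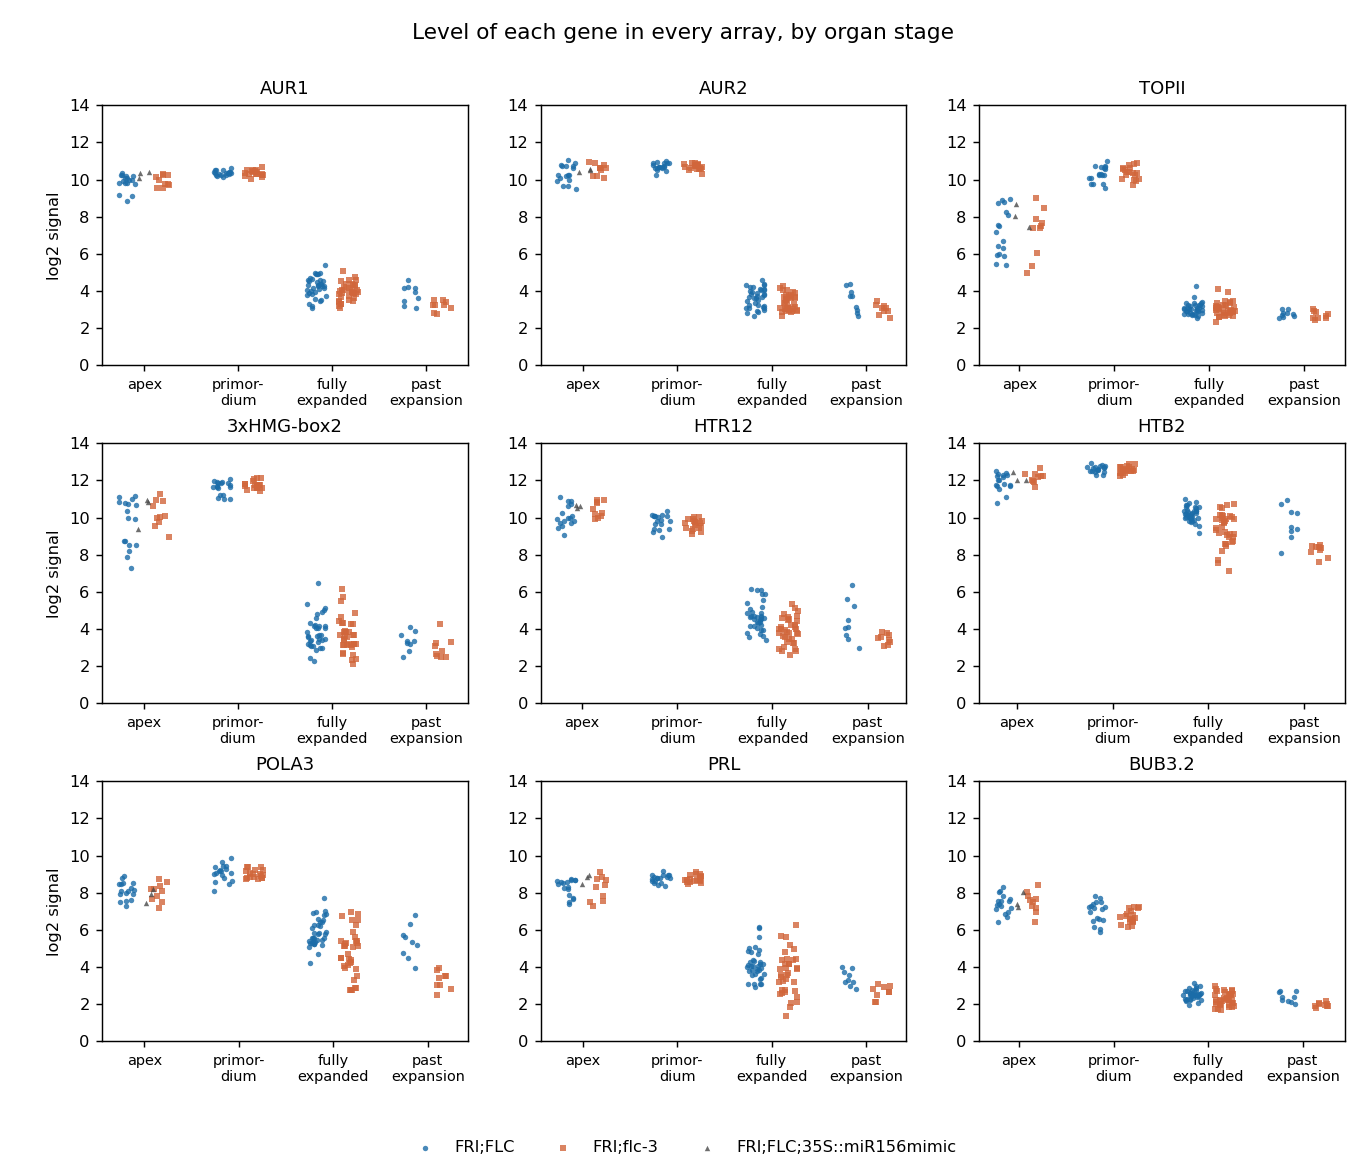
Log2 signal (vertical axis) of each of the 9 genes in every array, by organ stage (horizontal axis), with genotypes by colour and shape. Primordium arrays of each gene lie above all its fully expanded leaf arrays, with medians of 10.34 against 4.07 for AUR1 and 12.58 against 9.97 for HTB2.

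Within experiment 2, apices of days 4, 9 and 11 were compared with expanded leaves 1/2 to 9 of both genotypes. All 9 genes were higher in the apices, where 83.5% of all probe sets were called and 42.5% were called higher. The difference was 6.82 ± 0.10 log2 units for AUR2, 6.08 ± 0.15 for 3xHMG-box2, 5.92 ± 0.13 for HTR12, 5.73 ± 0.10 for AUR1 and 5.15 ± 0.09 for BUB3.2. It was 4.27 ± 0.09 for PRL, 4.18 ± 0.14 for TOPII, 2.84 ± 0.13 for POLA3 and 2.52 ± 0.10 for HTB2 (adjusted p 1.2e-26 or less for each). The groups compared did not overlap for any of the 9, and here too the share of all probe sets without overlap was not counted. In bulk samples such as these, fewer dividing cells and less RNA of the gene per cell cannot be told apart.

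The apex series asked how expression shifts as the shoot ages. The 9 genes did not move as a block: from day 4 to day 11 in FRI;FLC plants 4 rose (TOPII, 3xHMG-box2, HTB2 and PRL), 3 fell (HTR12, BUB3.2 and AUR2) and AUR1 and POLA3 were not called. This was a comparison in which 60.4% of all probe sets were called, 30.8% higher and 29.6% lower. From day 11 to day 21, 8 of the 9 fell and 0 rose, against 38.0% of all probe sets called and 19.3% called lower.

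3xHMG-box2 read 8.55, 8.72 and 8.52 in the 3 FRI;FLC arrays of day 4 and 10.99, 11.16 and 11.11 in those of day 11. By day 21 it read 8.19, 7.26 and 7.86. Day 11 was above both other days in every array, by 2.49 ± 0.35 log2 units over day 4 (5.61-fold, adjusted p = 2.0e-06) and by 3.31 ± 0.35 over day 21 (9.94-fold, adjusted p = 5.3e-08). TOPII read 6.01, 5.43 and 6.40 at day 4, 8.88, 8.26 and 8.74 at day 11 and 5.96, 5.41 and 5.91 at day 21. Day 11 did not overlap day 4 or day 21, but 1 array of day 9 (8.96) lay above all of day 11 and 1 of day 14 (8.78) lay among them. TOPII was higher at day 11 by 2.68 ± 0.49 than at day 4 (adjusted p = 5.2e-05) and fell by 2.87 ± 0.49 to day 21 (adjusted p = 5.7e-05).

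TOPII is the longest of these genes (6757 bases from start to end in TAIR10.1), and array signal in the apices moved with gene length. The slope of signal on log2 gene length over all probe sets with a length was from -0.21 to -0.07 in the FRI;FLC arrays of day 4, from 0.35 to 0.41 at day 11 and from 0.08 to 0.10 at day 21. With each array's length trend removed, TOPII still rose by 1.86 ± 0.43 from day 4 to 11 (adjusted p = 0.00061) and fell by 2.40 ± 0.43 to day 21 (adjusted p = 8.5e-05). PRL (4956 bases) rose by 0.55 ± 0.21 as deposited (adjusted p = 0.030) and differed by -0.05 ± 0.18 without the trend (adjusted p = 0.82), so its call in FRI;FLC plants depends on that choice. It was also lost without replicate 3 (adjusted p = 0.21), and over its 12 alternatives the adjusted p ran from 0.0070 to 0.82. HTB2, the shortest (847 bases), rose by 0.67 ± 0.19 (adjusted p = 0.0034), and by 1.35 ± 0.24 without the trend.

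HTR12 and BUB3.2 went the other way. HTR12 read 10.73, 11.12 and 10.88 in FRI;FLC apices of day 4 and 9.81, 9.81 and 9.70 at day 11. Each day 11 array was below each day 4 array, and it fell by 1.13 ± 0.15 (2.19-fold, adjusted p = 7.2e-07). BUB3.2 read 8.29, 8.09 and 8.04 at day 4 and 7.28, 7.42 and 6.70 at day 11, again without overlap, and fell by 1.00 ± 0.25 (adjusted p = 0.0012).

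AUR2 and AUR1 parted over the same days. AUR2 read 10.81, 11.07 and 10.90 at day 4 and 10.10, 9.95 and 10.27 at day 11, a fall of 0.82 ± 0.16 without overlap (adjusted p = 0.00013). AUR1 read 9.83, 10.17 and 9.84 at day 4 and 10.17, 9.99 and 10.07 at day 11, and differed by 0.13 (95% interval -0.21 to 0.46). POLA3 differed by 0.45 (95% interval -0.14 to 1.04). Between day 11 and day 21 AUR1 fell by 1.04 ± 0.16, POLA3 by 1.19 ± 0.29, HTB2 by 1.11 ± 0.19 and PRL by 1.01 ± 0.21 (adjusted p 0.0018 or less for each). AUR2 fell by 0.51 ± 0.16 (adjusted p = 0.015) and HTR12 by 0.43 ± 0.15 (adjusted p = 0.025), and both were lost with the length trend removed (adjusted p = 0.14 and 0.13), without replicate 1 (0.068 and 0.31) and without replicate 3 (0.085 and 0.069). BUB3.2 differed by -0.37 (95% interval -0.88 to 0.13).

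**Figure D2:**
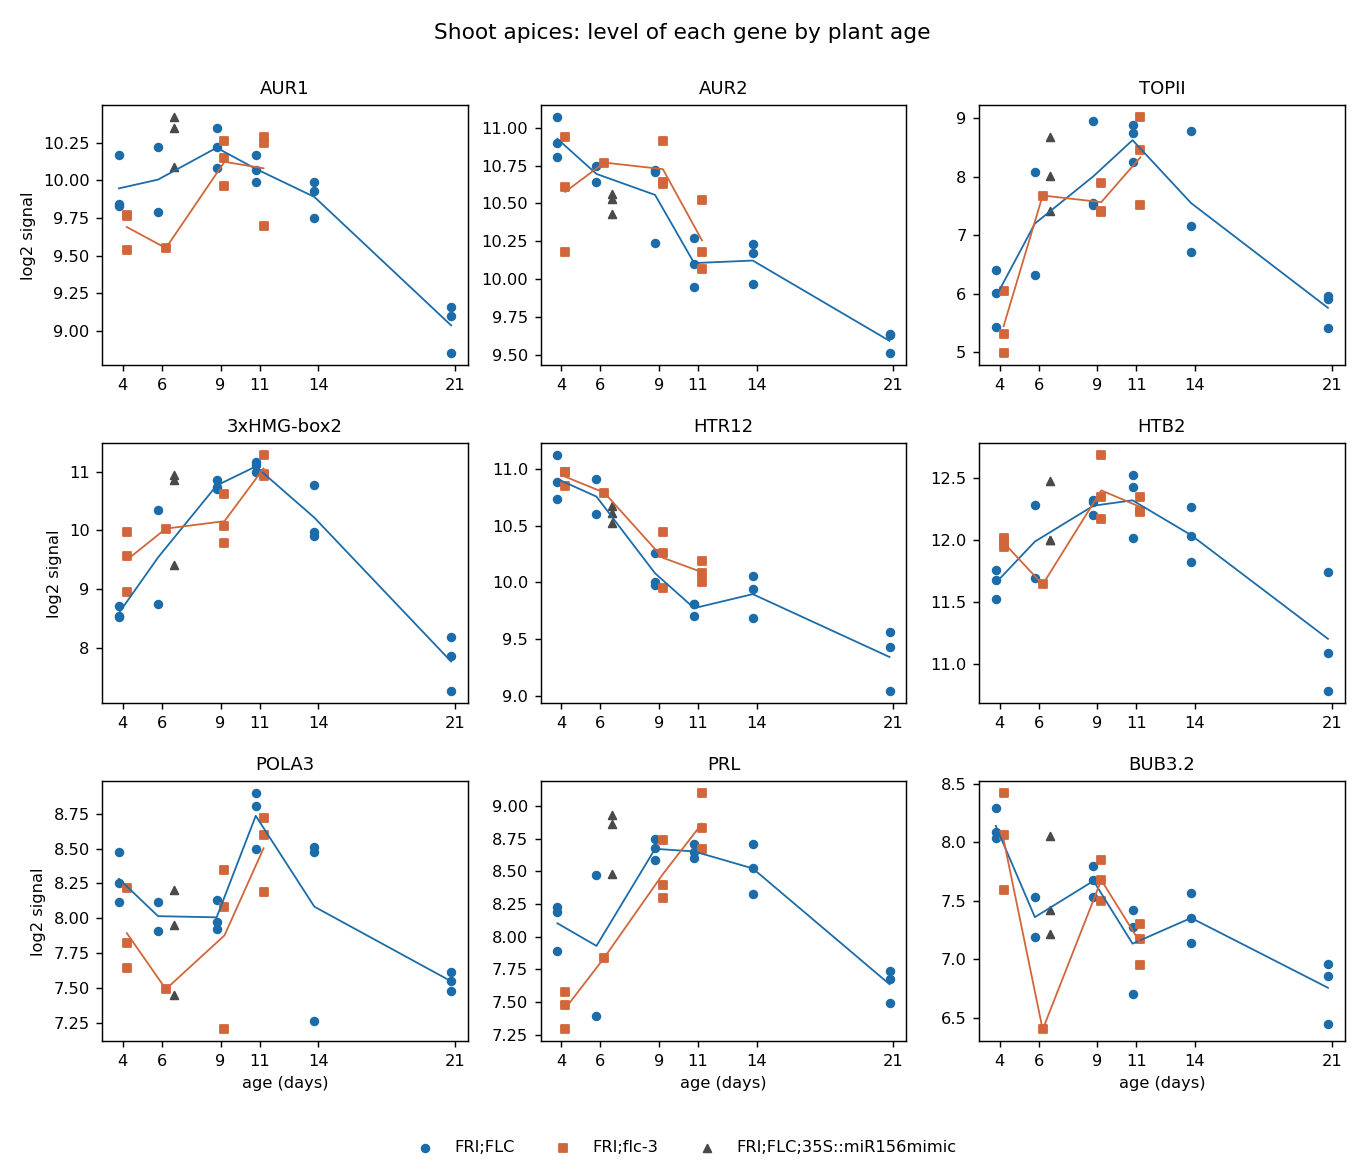
Log2 signal (vertical axis, scaled per gene) in single apex arrays against plant age in days (horizontal axis), with lines through the group means of FRI;FLC and FRI;flc-3. 3xHMG-box2 and TOPII rise to day 11 and fall to day 21, and HTR12 falls from 10.91 at day 4 to 9.77 at day 11 in FRI;FLC plants.

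In FRI;flc-3 apices 4 of the 9 genes rose between days 4 and 11 (TOPII, 3xHMG-box2, PRL and AUR1), 2 fell (HTR12 and BUB3.2) and 3 were not called, against 60.0% of all probe sets called, 31.2% higher and 28.8% lower. TOPII read 5.32, 4.98 and 6.04 at day 4 and 9.02, 8.46 and 7.52 at day 11, a rise of 2.88 ± 0.49 (adjusted p = 2.1e-05) and of 1.99 ± 0.43 without the length trend. PRL read 7.29, 7.48 and 7.58 at day 4 and 8.67, 8.83 and 9.10 at day 11, a rise of 1.42 ± 0.21 (adjusted p = 4.2e-06) and of 0.77 ± 0.18 without the trend (adjusted p = 0.00082). Neither gene overlapped between the days. 3xHMG-box2 rose by 1.56 ± 0.35 and AUR1 by 0.39 ± 0.16, the latter with overlap (adjusted p = 0.042) and lost without the length trend (adjusted p = 0.11). Without that trend 2 of the genes not called passed the test, AUR2 (-0.70, adjusted p = 0.00099) and HTB2 (1.02, adjusted p = 0.00084). HTR12 fell by 0.84 ± 0.15 and BUB3.2 by 0.88 ± 0.25. AUR1 was lost without replicate 2 (adjusted p = 0.35) and replicate 3 (0.22), and BUB3.2 without replicate 1 (0.066). Without replicate 3, AUR2 fell by 0.65 (adjusted p = 0.0088) and POLA3 rose by 0.64 (adjusted p = 0.038).

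The age changes of the genotypes were compared directly. For 0 of the 9 genes did they differ at an adjusted p under 0.05 (2 at an unadjusted p under 0.05), against 0.476% of all probe sets. The widest differences were those of 3xHMG-box2, whose rise was smaller in FRI;flc-3 plants by 0.93 (95% interval of the difference -1.96 to 0.10), and of PRL, whose rise was larger by 0.87 (0.25 to 1.49, adjusted p = 0.25). The genotype difference at days 4, 9 and 11 together was called for 0 of the 9 (0 also at an unadjusted p under 0.05), against 1.12% of all probe sets. It ran from -0.41 for TOPII (95% interval -0.998 to 0.17) to 0.16 for HTR12 (-0.02 to 0.34).

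Other features of the apex pools moved with age as well. The meristem marker CLV3, a signal of the stem cells, went from a mean of 4.35 at day 4 to 2.34 at day 11 and 2.34 at day 21 in FRI;FLC plants, and UFO, an F-box gene of the meristem, from 3.25 to 2.14 and 2.25. From day 4 to 11 JAG fell by 2.48 and MUTE from a mean of 4.47 to one of 2.37, SPCH differed by -0.48 (adjusted p = 0.24), SBPASE rose by 0.68 and RCA differed by 0.21 (adjusted p = 0.26). From day 11 to 21, when 8 of the 9 genes fell, CLV3 and UFO were not called, RCA fell by 0.91, SBPASE by 1.36 and MUTE by 0.75, and WRKY53 rose by 1.29. The pools of later days also held fewer apices. The part of these shifts in the changes of the 9 genes was not tested.

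Apices of the mimic line were set against FRI;FLC apices of day 6, 3 arrays against 2, to ask what lower miR156 activity changes. PRL was called, 1 of the 9, while 31.9% of all probe sets were called and 17.7% were called higher. It read 8.86, 8.48 and 8.93 in the mimic line and 7.39 and 8.47 in FRI;FLC plants, a difference of 0.83 ± 0.24 (adjusted p = 0.0099). The mimic arrays were all above both control arrays, one of them barely. Without FRI;FLC replicate 1, the low array, the difference was 0.29 ± 0.24 (adjusted p = 0.57), and with days 4 and 9 of FRI;FLC as the control it was 0.37 ± 0.19 (adjusted p = 0.16). The call was also lost without the arrays numbered 3 (adjusted p = 0.080), with array weights (0.11) and with the compared groups alone (0.24). With the length trend removed the difference was 0.43 ± 0.20 (adjusted p = 0.11). The slope on log2 gene length was from 0.12 to 0.33 in the mimic arrays and from -0.30 to 0.13 in the controls. Without the arrays numbered 1 the difference was 0.24. Leaving out those numbered 1 or 2 left 1 control array, which the fit assumes to vary like the other groups. Without those numbered 2 that array was the low one, and TOPII (2.03, adjusted p = 0.0070) and 3xHMG-box2 (2.15, adjusted p = 2.3e-05) passed the test, so these calls rest on 1 array. Over its 14 alternatives the adjusted p ran from 5.9e-05 to 0.77. Markers moved with the mimic as well. CLV3 was lower by 1.80 and UFO differed by 0.28 (adjusted p = 0.39), the 3 young leaf markers were higher by 0.89 to 1.30, RCA and SBPASE by 1.05 and 1.03 and WRKY53 by 1.46, and SAG29 was lower by 0.70. Their part in the PRL difference was not tested. Of the other 8, 3xHMG-box2 differed most, by 0.86 (95% interval 0.05 to 1.67, adjusted p = 0.098), and AUR2 by -0.19 (-0.56 to 0.19).

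Leaf primordia of equal length but rising position asked whether later leaves start out differently. In FRI;FLC plants the 9 genes were all higher at leaf 11 than at leaves 1/2, and 6 of them were called, where 44.2% of all probe sets were called and 23.0% were called higher. Their median difference was 0.40 against 0.013 over all probe sets. In FRI;flc-3 plants 2 of the 9 rose, where 26.5% were called and 14.3% called higher. Leaf 11 was cauline in those plants, so leaf type and position cannot be told apart there. Between the genotypes at leaf 11, leaf type and genotype cannot be told apart either. Leaf stage markers moved with position too. RCA fell by 0.61 and SBPASE by 0.34 in FRI;FLC plants, and by 0.44 and 0.39 in FRI;flc-3 plants. JAG rose by 0.63 in FRI;FLC and fell by 0.94 in FRI;flc-3 plants, MUTE rose by 1.13 in FRI;flc-3 plants, and both changes differed between genotypes (adjusted p = 3.4e-05 and 0.023). SPCH was called in neither genotype (-0.03 and -0.31). The part of these shifts in the changes of the 9 genes was not tested.

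BUB3.2 rose most. In FRI;FLC primordia it read 5.91, 6.05 and 6.15 at leaves 1/2 and 7.14, 7.69 and 7.52 at leaf 11, and 6.13, 6.48 and 6.43 and then 6.67, 6.73 and 6.45 in FRI;flc-3 primordia. The positions did not overlap in FRI;FLC plants, with a rise of 1.41 ± 0.20 (2.66-fold, adjusted p = 2.6e-07), and overlapped in FRI;flc-3 plants (0.27, 95% interval -0.13 to 0.67). The rise was smaller in FRI;flc-3 plants by 1.14 ± 0.28 (adjusted p = 0.0028).

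POLA3 read 9.08, 8.11 and 8.56 at leaves 1/2 and 9.85, 9.65 and 9.42 at leaf 11 of FRI;FLC plants, a rise of 1.06 ± 0.17 without overlap (adjusted p = 3.1e-06). In FRI;flc-3 plants it read 8.81, 8.76 and 8.91 and then 9.22, 9.06 and 9.24, also without overlap but not called (0.35, 95% interval 0.01 to 0.70, adjusted p = 0.12). The difference between the genotypes' changes was -0.71 ± 0.24 (adjusted p = 0.033). AUR1 read 10.14, 10.22 and 10.19 at leaves 1/2 and 10.65, 10.54 and 10.35 at leaf 11 of FRI;FLC plants. It rose there by 0.33 ± 0.11 without overlap (adjusted p = 0.011, lost without replicate 1 at 0.20 and replicate 2 at 0.052), differed by -0.12 in FRI;flc-3 plants (95% interval -0.33 to 0.10), and differed between them by -0.45 ± 0.15 (adjusted p = 0.033). These 3 were the genes of the 9 whose position change differed between genotypes, against 19.6% of all probe sets called and 8.46% called lower.

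These differences between genotypes rest on 3 arrays a group and on a leaf 11 that was cauline in FRI;flc-3 plants only. Without replicate 3 the adjusted p was 0.065 for BUB3.2, 0.11 for POLA3 and 0.071 for AUR1. AUR1 was also lost without replicate 1 (0.29) and replicate 2 (0.12), and POLA3 without replicate 2 (0.30). With leaf 9 in place of leaf 11, a choice made after seeing the data, the difference for BUB3.2 was -0.97 (adjusted p = 0.045), and AUR1 and POLA3 were not called (0.61 and 0.81). For BUB3.2 the adjusted p over its 12 alternatives ran from 0.00090 to 0.065.

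HTR12 and HTB2 rose with position in both genotypes. HTR12 read 9.41, 9.33 and 8.95 at leaves 1/2 and 10.16, 10.15 and 10.34 at leaf 11 of FRI;FLC plants, and 9.20, 9.09 and 9.45 and then 9.80, 9.79 and 9.95 in FRI;flc-3 plants. It rose by 0.99 ± 0.14 (adjusted p = 3.0e-07) and 0.60 ± 0.14 (adjusted p = 0.0010), without overlap in either. HTB2 rose by 0.39 ± 0.10 and 0.41 ± 0.10, again without overlap (adjusted p = 0.0012 and 0.0015, the latter lost without replicate 1 at 0.060). The difference between those changes was 0.02 for HTB2 (95% interval -0.26 to 0.30) and -0.39 for HTR12 (-0.79 to 0.01).

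3xHMG-box2 rose by 0.59 ± 0.18 in FRI;FLC plants with overlap (adjusted p = 0.0070, lost without replicate 1 at 0.099 and replicate 2 at 0.082) and differed by 0.01 in FRI;flc-3 plants (95% interval -0.35 to 0.38). AUR2, TOPII and PRL were called in neither genotype, though without replicate 1 AUR2 (0.39, adjusted p = 0.042) and TOPII (0.72, adjusted p = 0.014) were in FRI;FLC plants. Their differences in FRI;FLC plants were 0.26 (95% interval 0.01 to 0.52), 0.40 (-0.08 to 0.89) and 0.11 (-0.21 to 0.44). In FRI;flc-3 plants they were -0.13 (-0.38 to 0.13), 0.34 (-0.15 to 0.82) and 0.23 (-0.10 to 0.55).

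**Figure D3:**
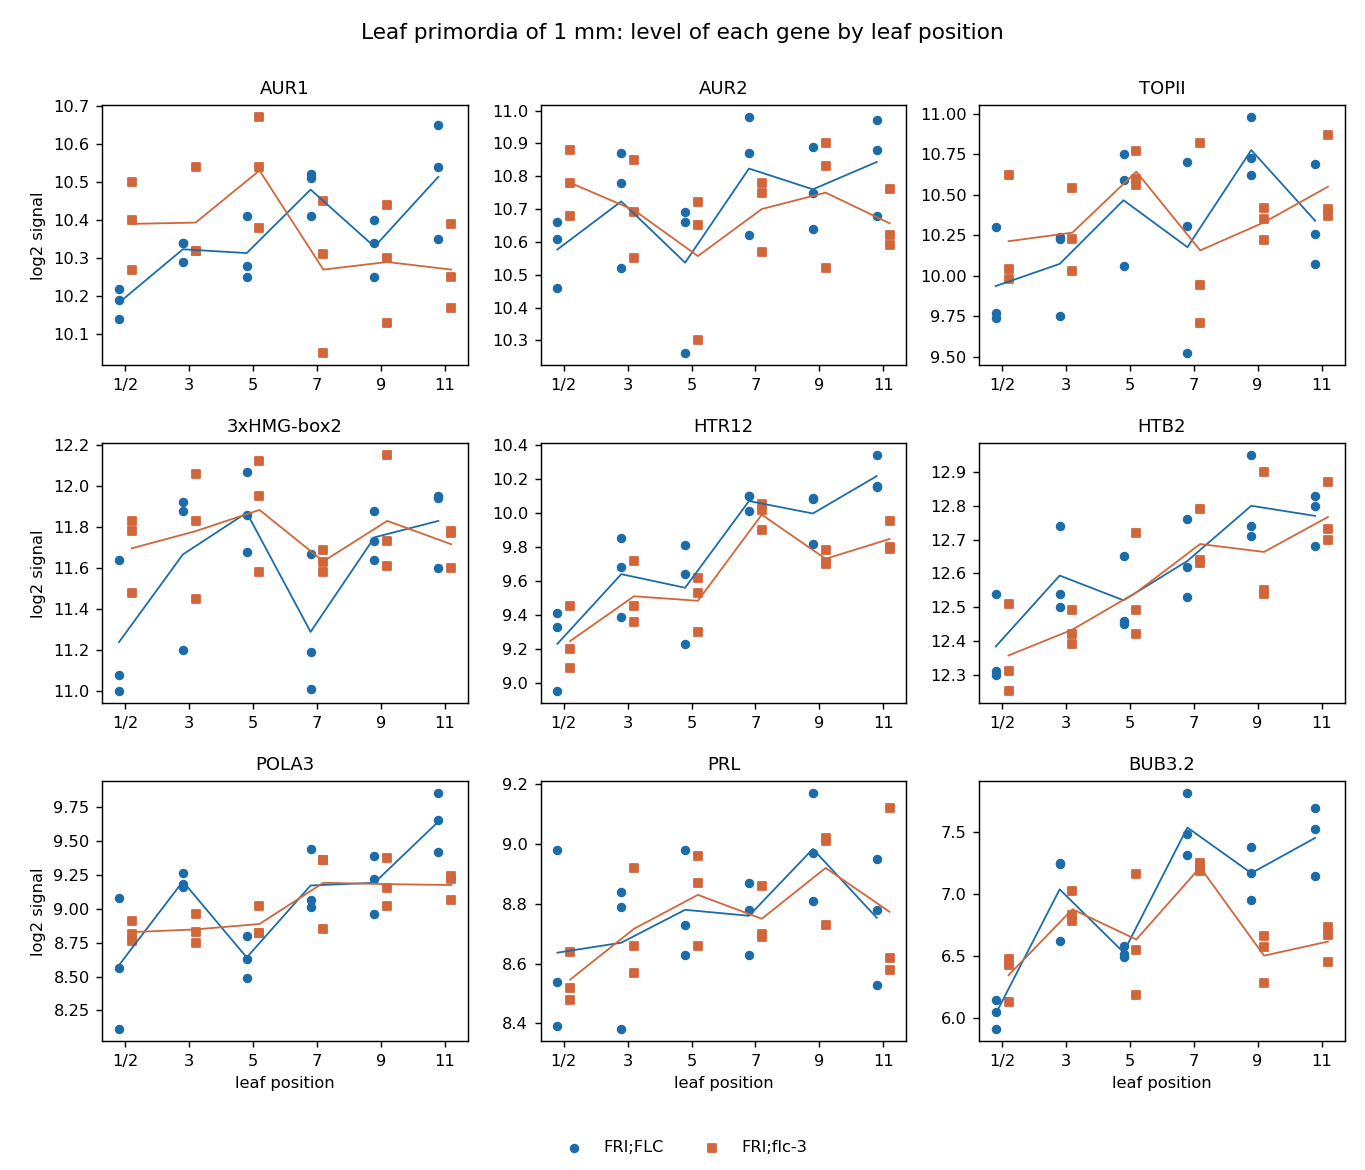
Log2 signal (vertical axis, scaled per gene) in single arrays of 1 mm primordia against leaf position (horizontal axis), with lines through the group means. BUB3.2 goes from 6.04 at leaves 1/2 to 7.45 at leaf 11 in FRI;FLC plants and from 6.35 to 6.62 in FRI;flc-3 plants.

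At leaf 11 itself, 3 of the 9 genes were lower in FRI;flc-3 than in FRI;FLC primordia, where 31.9% of all probe sets were called and 14.6% were called lower. A cauline is set against a rosette primordium here, so leaf type and genotype cannot be told apart. BUB3.2 was lower by 0.84 ± 0.20 (adjusted p = 0.0011), POLA3 by 0.46 ± 0.17 (adjusted p = 0.033) and HTR12 by 0.37 ± 0.14 (adjusted p = 0.038). The genotypes did not overlap for any of the 3, but these are 3 arrays against 3, and overlap was not counted over all probe sets. The calls of POLA3 and HTR12 were lost whichever replicate was left out, and that of BUB3.2 without replicate 3 (adjusted p = 0.052). Over all 6 positions, leaf 11 among them, the genotype difference was called for BUB3.2 (-0.26 ± 0.08, adjusted p = 0.016) and HTR12 (-0.15 ± 0.06, adjusted p = 0.049). In that comparison 21.3% of all probe sets were called and 10.3% were called lower, and both genes overlapped. HTR12 was lost there whichever replicate was left out, and BUB3.2 without replicate 1 (adjusted p = 0.21) and replicate 3 (0.084). The other 7 differed by between -0.05 and 0.15, and for AUR1 the 95% interval was -0.09 to 0.09.

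In fully expanded leaves all 9 genes were lower in later leaves over both experiments together, though 3xHMG-box2 was not within experiment 1. The 9 genes were called lower at leaf 9 than at leaves 1/2 over both genotypes and experiments. In that comparison 56.6% of all probe sets were called and 28.2% were called lower. The median difference was -0.86 over the 9 and 0.0042 over all probe sets. Leaves 1/2 were taken at day 14 and leaf 9 between days 30 and 33, so position and plant age cannot be told apart. Over the same positions RCA fell by 0.32, SBPASE by 0.29 and SAG29 rose by 1.95, with 0.46 for WRKY53 (adjusted p = 0.16), and their part in the changes of the 9 genes was not tested.

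Over both experiments together the replication genes POLA3 and PRL fell furthest, while within experiment 1 HTR12 fell further than PRL and within experiment 2 3xHMG-box2 fell further than POLA3. POLA3 in the 12 arrays of leaves 1/2 lay between 6.26 and 7.72 (median 6.86) and in the 12 of leaf 9 between 2.76 and 6.41 (median 4.81). The ranges overlapped at one end only, and it fell by 2.12 ± 0.21 (4.34-fold, adjusted p = 2.7e-13), or 2.28 ± 0.30 within experiment 1 and 1.96 ± 0.30 within experiment 2. PRL fell by 2.00 ± 0.17 (4.00-fold, adjusted p = 2.5e-16), by 1.02 ± 0.24 in experiment 1 and by 2.98 ± 0.24 in experiment 2. For all 9 genes, the SE and adjusted p over both experiments measure the spread between pools of a group, not that between experiments. In leaves 1/2 PRL read between 3.88 and 5.19 in experiment 1 and between 5.63 and 6.24 in experiment 2, so the experiments did not overlap there.

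HTR12 fell by 1.30 ± 0.22 (adjusted p = 5.5e-07), 1.71 ± 0.31 and 0.89 ± 0.31 within the experiments. HTB2 fell by 0.86 ± 0.16 (0.77 ± 0.23 and 0.94 ± 0.23), and AUR1 by 0.68 ± 0.14 (0.83 ± 0.20 and 0.53 ± 0.20). 3xHMG-box2 fell by 0.88 ± 0.22 over both experiments (adjusted p = 0.00053), and by 2.07 ± 0.31 within experiment 2. In experiment 1 it differed by 0.30 ± 0.31 the other way (adjusted p = 0.49). TOPII fell by 0.51 ± 0.10, with -0.07 ± 0.14 within experiment 1 (adjusted p = 0.76) and -0.94 ± 0.14 within experiment 2. AUR2 fell by 0.46 ± 0.15 and BUB3.2 by 0.32 ± 0.09, each called within experiment 1 and not within experiment 2 (adjusted p = 0.26 and 0.43). AUR2 was lost without replicate 1 (0.053) and replicate 2 (0.059), and BUB3.2 without replicate 2 (0.055).

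The experiments stood apart for 3xHMG-box2 and PRL in the first leaf pair. In leaves 1/2 of experiment 1, 3xHMG-box2 read 3.13, 3.29 and 2.30 in FRI;FLC plants and 3.86, 3.86 and 3.16 in FRI;flc-3 plants. In experiment 2 it read 6.50, 5.13 and 5.03 and then 5.75, 6.13 and 5.52. All 6 arrays of experiment 2 were above all 6 of experiment 1, at the same leaf pair and the same day 14. The slope of signal on log2 gene length in these leaves was from -0.05 to 0.33 in experiment 1 and from 0.35 to 0.43 in experiment 2, and its part in this difference was not tested. In leaf 9 the slope was from -0.04 to 0.42 in experiment 1 and from -0.29 to 0.21 in experiment 2.

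**Figure D4:**
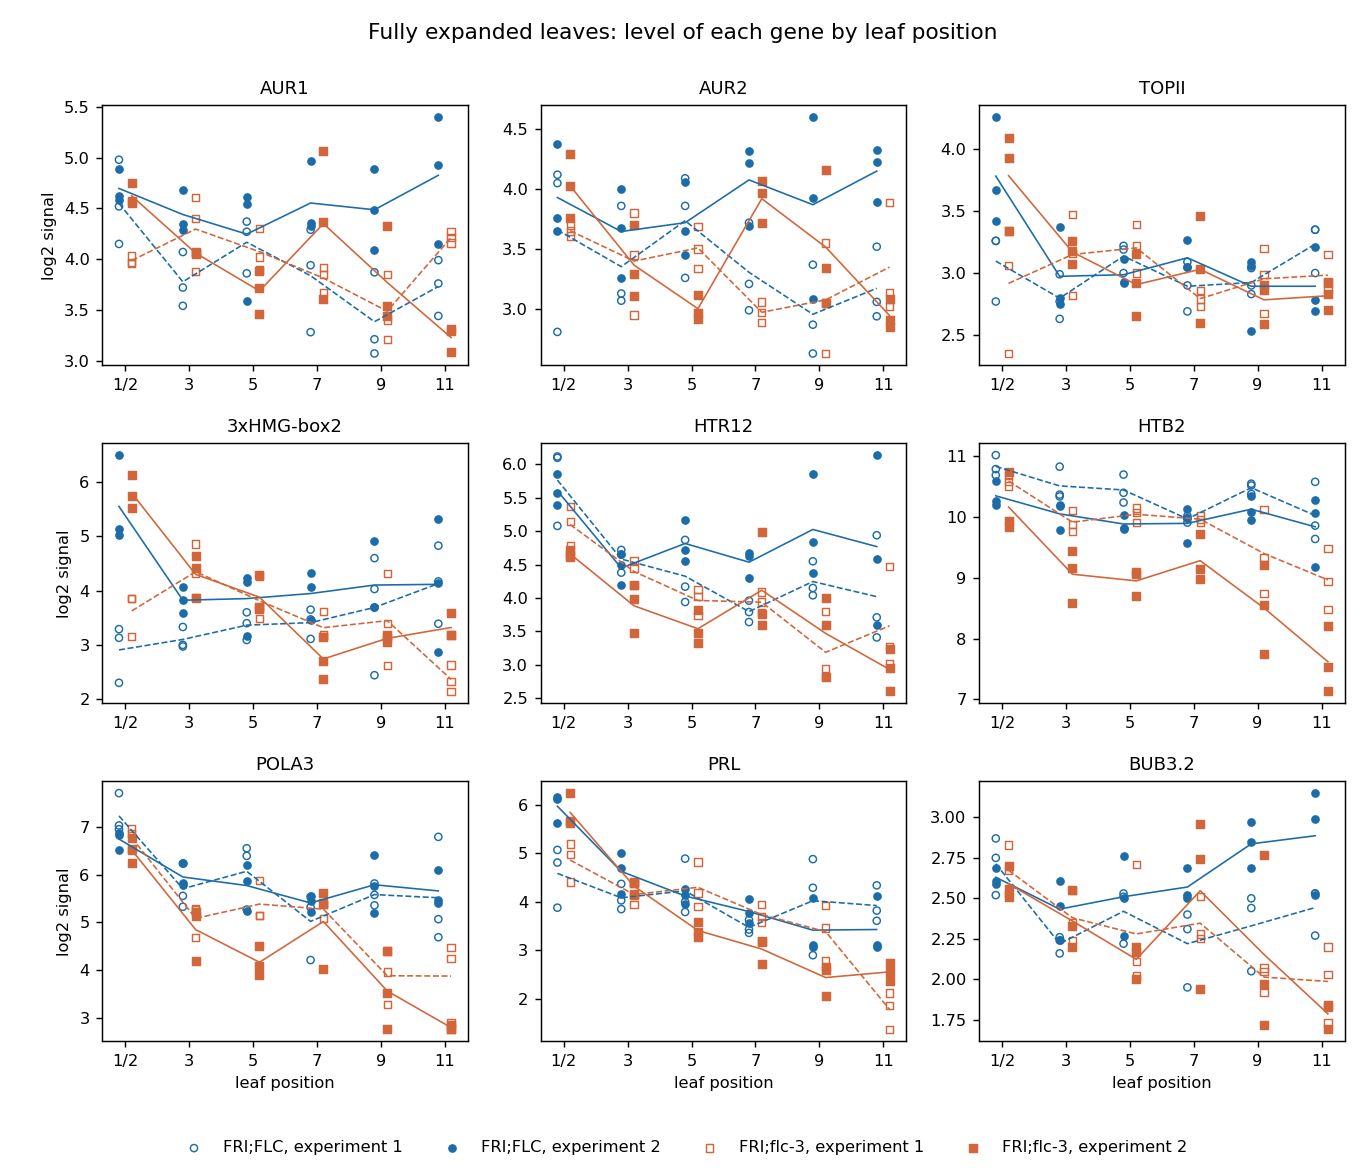
Log2 signal (vertical axis, scaled per gene) in single arrays of fully expanded leaves against leaf position (horizontal axis), open symbols and dashed lines for experiment 1 and filled symbols and solid lines for experiment 2. POLA3 and PRL are highest at leaves 1/2, and 3xHMG-box2 in leaves 1/2 is above 5 in experiment 2 and below 4 in experiment 1.

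Some of the genes were lower in expanded leaves of FRI;flc-3 than of FRI;FLC plants. Over positions 1/2 to 9 and both experiments, 5 of the 9 were lower in FRI;flc-3 plants, where 34.0% of all probe sets were called and 17.5% were called lower. POLA3 was lower by 0.88 ± 0.14 (1.84-fold, adjusted p = 4.3e-07), HTR12 by 0.69 ± 0.14 (adjusted p = 5.8e-05) and HTB2 by 0.67 ± 0.10 (adjusted p = 3.3e-07). PRL was lower by 0.29 ± 0.11 (adjusted p = 0.032, lost without replicate 1 at 0.074 and replicate 2 at 0.53). BUB3.2 was lower by 0.14 ± 0.06 (adjusted p = 0.048, lost without replicate 2 at 0.34 and replicate 3 at 0.17). The ranges of the genotypes overlapped for all 5. SAG29 was higher in these FRI;flc-3 leaves by 0.94 and SBPASE by 0.095, with -0.24 for WRKY53 and 0.16 for RCA (adjusted p = 0.31 and 0.068).

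Within experiment 1 only POLA3 (-0.64 ± 0.19) and HTB2 (-0.47 ± 0.14) of the 9 were called, and PRL differed by 0.01 ± 0.15. Within experiment 2, 6 of the 9 were called, the 5 above and AUR1 (-0.39 ± 0.13, adjusted p = 0.025). In experiment 1 FRI;flc-3 leaves 3 to 9 were collected 2 or 3 days before those of FRI;FLC, whereas leaves 3, 5 and 7 of experiment 2 were of equal days (23, 26 and 29). In those, a selection made after seeing the data, POLA3 was lower by 1.04 (adjusted p = 0.0035), HTB2 by 0.85 (adjusted p = 0.0013) and PRL by 0.60 (adjusted p = 0.0498), and HTR12 (-0.75, adjusted p = 0.054), BUB3.2 (-0.16, adjusted p = 0.46) and AUR1 (-0.38, adjusted p = 0.17) were not called. Without leaf 9, also chosen after seeing the data, PRL (-0.16, adjusted p = 0.39) and BUB3.2 (-0.051, adjusted p = 0.63) were lost. TOPII differed by 0.01 over all leaves (95% interval -0.12 to 0.14) and 3xHMG-box2 by 0.06 (-0.22 to 0.34).

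At leaf 11 the comparison is of a cauline leaf of FRI;flc-3 with a rosette leaf of FRI;FLC, so leaf type and genotype cannot be told apart. Of the 9 genes 7 were lower in the cauline leaf, where 38.3% of all probe sets were called and 18.6% were called lower. POLA3 read 4.25, 2.89 and 4.48 in experiment 1 and 2.77, 2.75 and 2.85 in experiment 2 in cauline leaves. In rosette leaves it read 4.69, 5.07 and 6.80 and then 5.48, 6.10 and 5.41. Every cauline array was below every rosette array, by 2.26 ± 0.30 on the mean (4.78-fold, adjusted p = 5.7e-09).

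PRL was lower by 1.51 ± 0.24 (adjusted p = 4.0e-07) and BUB3.2 by 0.78 ± 0.13 (adjusted p = 6.6e-07), also without overlap. In cauline leaves of experiment 1 PRL read 1.86, 1.37 and 2.12, near the 2.03 under which 10% of all values lay. BUB3.2 was between 1.69 and 3.15 in all expanded leaves, so both sizes were read at low signal. HTB2 was lower by 1.64 ± 0.23, 3xHMG-box2 by 1.28 ± 0.31 and HTR12 by 1.14 ± 0.31, with overlap. 3xHMG-box2 was not called within experiment 2 (adjusted p = 0.18), nor HTR12 within experiment 1 (0.42) or without replicate 2 (0.085). AUR1 was lower by 0.56 ± 0.20 (adjusted p = 0.020), but it differed by 0.48 ± 0.28 the other way within experiment 1 (adjusted p = 0.15) and by -1.60 ± 0.28 within experiment 2, and it was lost without replicate 1 (0.20) and replicate 2 (0.072). AUR2 differed by -0.51 (95% interval -0.95 to -0.08, adjusted p = 0.056) and TOPII by -0.16 (-0.45 to 0.13). AUR2 was called without replicate 3 (-0.72, adjusted p = 0.031) and within experiment 2 (-1.20, adjusted p = 0.0019), and differed by 0.18 within experiment 1 (adjusted p = 0.66). For 4 genes called in both experiments the size differed between them, and whether by more than error was not tested. Experiments 1 and 2 gave -1.64 and -2.87 for POLA3, -2.14 and -0.87 for PRL, -1.06 and -2.22 for HTB2 and -0.46 and -1.10 for BUB3.2. The cauline leaves were of days 30 and 32 and the rosette leaves of days 34 and 33. In experiment 1 the slope of signal on log2 gene length was from -0.33 to -0.02 in cauline and from -0.03 to 0.41 in rosette leaves. In experiment 2 it was from 0.10 to 0.24 and from -0.16 to 0.22. Of 2 senescence markers (2 of 10 listed), SAG29 had a mean of 6.26 in these cauline leaves and 2.04 in the rosette leaves, and WRKY53 went the other way, with 8.71 and 10.74. Their part in the differences of the 9 genes was not tested.

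Leaves past full expansion were set against fully expanded leaves 3, 5 and 7 of the same experiment. In FRI;FLC plants AUR1 fell by 0.58 ± 0.16 (adjusted p = 0.0032) and PRL by 0.77 ± 0.20 (adjusted p = 0.0012), 2 of the 9 where 34.7% of all probe sets were called and 16.8% were called lower. AUR1 was lost there without replicate 2 (adjusted p = 0.097). The mean over the 3 leaves joined unlike changes in FRI;FLC plants. In leaf 3 POLA3 went from a mean of 5.96 ± 0.25 to 4.40 ± 0.41 (SD, n = 3) and HTB2 from 10.05 ± 0.24 to 8.78 ± 0.61. In leaf 5 POLA3 went from 5.78 ± 0.49 to 6.10 ± 0.83 and HTB2 from 9.89 ± 0.13 to 10.20 ± 0.77, so the means moved the other way but within the spread. In leaf 7 POLA3 read 5.55, 5.45 and 5.23 when fully expanded and 5.33, 5.71 and 5.61 past expansion. HTB2 read 10.13, 9.57 and 9.99 and then 10.28, 10.74 and 9.50 there, and both genes overlapped. Single leaves were not tested. In FRI;flc-3 plants 7 of the 9 fell, where 30.5% were called and 16.1% called lower: POLA3 by 1.39 ± 0.25, PRL by 0.93 ± 0.20, HTB2 by 0.88 ± 0.19, AUR1 by 0.83 ± 0.16, 3xHMG-box2 by 0.66 ± 0.26, BUB3.2 by 0.38 ± 0.10 and TOPII by 0.34 ± 0.12 (adjusted p 0.042 or less for each). TOPII was lost without replicate 1 (0.18) and replicate 3 (0.26), BUB3.2 without replicate 1 (0.068) and replicate 3 (0.062), and 3xHMG-box2 whichever was left out (0.079 to 0.25).

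HTB2 in FRI;flc-3 plants read between 8.58 and 9.73 in the 9 fully expanded arrays (median 9.09) and between 7.60 and 8.54 in the 9 later ones (median 8.37), without overlap. POLA3 overlapped there. The difference between the genotypes' changes, added after seeing the data, was called for 0 of the 9 (2 at an unadjusted p under 0.05, against 7.00% of all probe sets called). It was -1.03 for POLA3 (95% interval -1.73 to -0.33, adjusted p = 0.059) and -0.65 for HTB2 (-1.17 to -0.12, adjusted p = 0.13). Without replicate 3 both were called (0.030 and 0.027). SAG29 rose past expansion to a mean of 6.96 in FRI;FLC and of 10.18 in FRI;flc-3 plants. WRKY53 rose by 1.47 to a mean of 10.65 in FRI;FLC and differed by -0.02 in FRI;flc-3 plants (mean 9.84). Their changes differed between genotypes in opposite directions, by 2.21 for SAG29 and by -1.49 for WRKY53 (adjusted p = 0.022 and 0.031), and their part in the changes of the 9 genes was not tested.

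**Figure D5:**
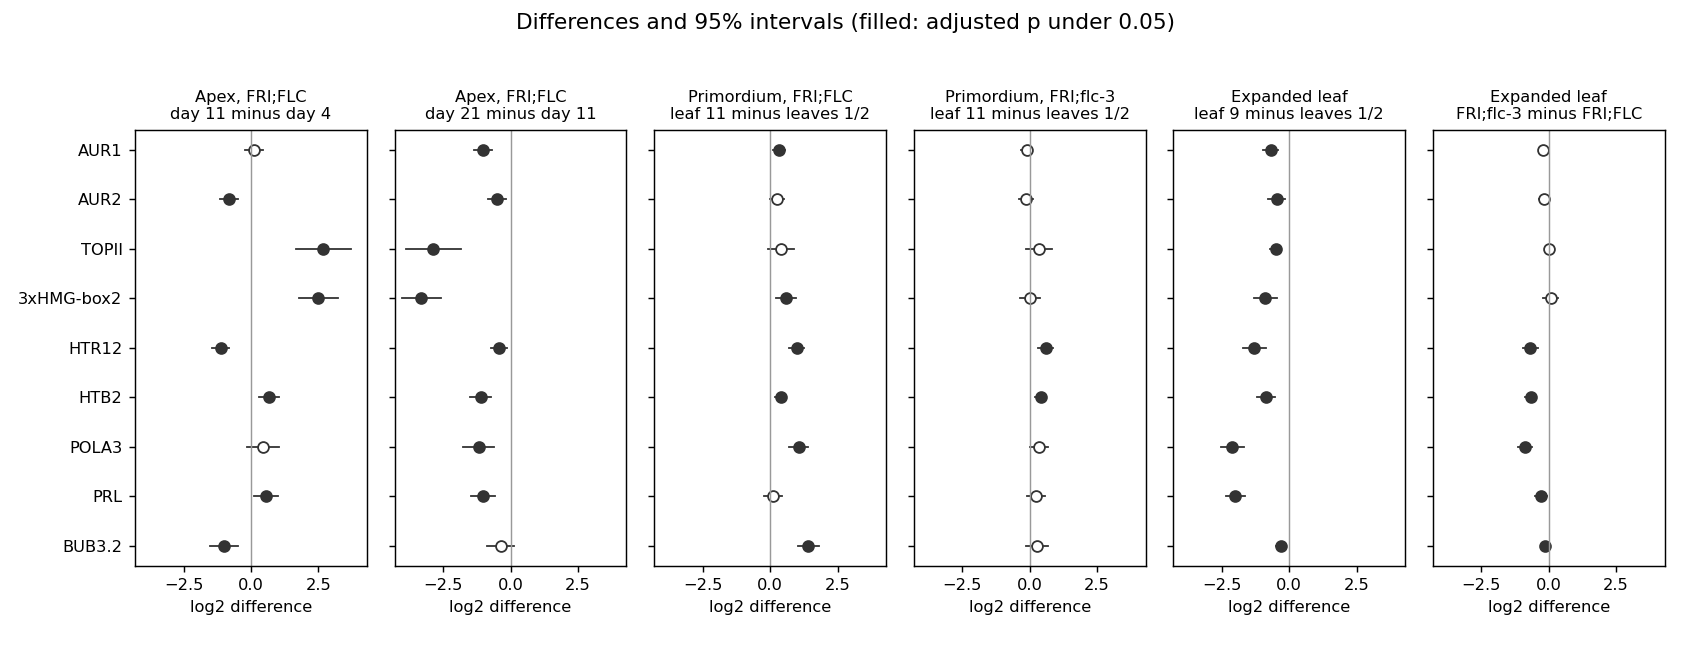
Log2 difference (horizontal axis) of each gene (vertical axis) in 6 comparisons, with 95% intervals as lines and filled circles where the adjusted p in limma was under 0.05. The genes part in direction between days 4 and 11 in the apex, lie at or above 0 with leaf position in FRI;FLC primordia, and lie below 0 with leaf position in expanded leaves.

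The drop from primordium to expanded leaf also differed between genotypes for 2 of the 9 genes, where 19.2% of all probe sets were called and 9.17% were called higher. It was larger in FRI;flc-3 plants by 0.76 ± 0.20 for POLA3 (adjusted p = 0.0049, lost without replicate 3 at 0.18) and by 0.52 ± 0.11 for HTB2 (adjusted p = 0.00030). For TOPII it differed by 0.08 (95% interval -0.21 to 0.37), and for AUR1 by -0.07 (-0.30 to 0.16). These means include leaf 11, which was cauline in FRI;flc-3 plants. From leaf 3 on, the expanded FRI;flc-3 leaves of experiment 1 were also collected on earlier days than those of FRI;FLC. Leaf type, leaf age and genotype therefore cannot be told apart here.

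Over the means of all 53 groups the 9 genes rose and fell together. All 36 pairs correlated positively, with a median Pearson r of 0.948, from 0.887 for POLA3 and BUB3.2 to 0.997 for AUR1 and AUR2. These groups span 4 organ stages, and 45.9% of all probe sets were called higher in primordia than in expanded leaves. Pairs of other genes were not correlated for reference. Within the 11 apex groups 27 of 36 pairs were positive and the median r was 0.442, from -0.32 for TOPII and BUB3.2 to 0.88 for TOPII and 3xHMG-box2. Within the 12 primordium groups the median was 0.346 and within the 30 leaf groups 0.656. Over the 23 apex and primordium groups, AUR1 (0.944) and HTB2 (0.929) followed the mean profile of the 9 genes, and HTR12 (-0.083) and BUB3.2 (0.035) did not. Each gene is itself part of that mean, which raises its r.

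The 5 other named genes most like that mean profile over the 53 groups were AT4G15830, AT3G54750, AT3G61610, AT1G10780 and AT4G02800, with r from 0.991 to 0.993. Over the 23 apex and primordium groups they were AT5G08400 (0.955), AT1G05440 (0.937), ATMYC1 (0.925), AT3G12170 (0.920) and BUB3.1 (0.916). BUB3.1 is the checkpoint paralog of BUB3.2, and it went the other way in ageing apices: it rose by 0.38 (adjusted p = 0.042) from day 4 to 11 in FRI;FLC plants, where BUB3.2 fell by 1.00.

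Other genes of replication and mitosis were read beside the 9. Of lists of such genes, 2 of 32 replication genes, 6 of 34 genes of mitosis, spindle and cytokinesis, 0 of 25 cell cycle regulators and 6 of 32 core histone genes were matched by name, and 12 further genes of replication and repair and 15 of mitosis and cytokinesis were added by their names in the annotation. In primordia against expanded leaves, both replication genes, 6 of 6 mitosis genes, 12 of 12 added replication and repair genes and 11 of 15 added mitosis genes were higher, with 3 of the last lower, where 45.9% of all probe sets were called higher. BUBR1, named after the checkpoint protein BUBR1 of animals, was higher by 6.71 ± 0.06 and AUR3, the third aurora kinase, by 6.03 ± 0.06. Of the H2B genes 5 of 6 were higher and HTB3 was lower by 1.59 ± 0.05.

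From day 4 to 11 in FRI;FLC apices, CDC6B, a loader of the MCM ring, rose by 1.34 ± 0.26 and ICU2, the catalytic subunit of DNA polymerase alpha, by 1.23 ± 0.36. Of the 6 mitosis genes 4 rose and 0 fell, where 30.8% of all probe sets were called higher and 29.6% lower. They were led by 3xHMG-box1, a relative of 3xHMG-box2, at 3.31 ± 0.54, and by HBT, a subunit of the anaphase-promoting complex, at 1.31 ± 0.34. Their median difference was 0.72 against -0.014 over all probe sets. Of the 6 H2B genes 0 rose and 3 fell, among them HTB1 by 0.67 ± 0.13, while HTB2 rose. From day 11 to 21 all 6 mitosis genes fell, 3xHMG-box1 by 3.60 ± 0.54 and BUBR1 by 2.45 ± 0.33, and so did both replication genes and 5 of the 6 H2B genes, where 19.3% of all probe sets were called lower.

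Between leaves 1/2 and leaf 11 in FRI;FLC primordia, 4 of the 6 mitosis genes rose and 0 fell, led by AUR3 (1.16 ± 0.20) and 3xHMG-box1 (1.00 ± 0.29), where 23.0% of all probe sets were called higher. Neither replication gene was called there, with 0.25 ± 0.21 for CDC6B and -0.18 ± 0.26 for ICU2. In expanded leaves, from leaves 1/2 to leaf 9, ICU2 fell by 1.12 ± 0.12 and CDC6B by 0.58 ± 0.06, 9 of 12 added replication and repair genes fell with 0 rising, and 2 of the 6 mitosis genes fell with 0 rising, where 28.2% of all probe sets were called lower, so that the share of mitosis genes was close to the background. Of the H2B genes HTB3 rose by 0.64 ± 0.08 and HTB5 fell by 0.33 ± 0.11 in that comparison.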

How the data were processed

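Affymetrix ATH1 arrays of pooled Arabidopsis organs were used, with cDNA amplified from 50 ng of RNA per the labels' protocols. The deposited values are log2 signals of 19324 probe sets, and GCRMA and MAS5 are named by the submitters' processing notes, in versions not given in the sources used here. No column belonged to other samples (0). Precision is limited by the number of arrays.

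Probe sets were named through the platform annotation and TAIR10.1 gene records: 10918 had 1 gene, 407 several and 7999 were unlisted. Values were fitted as deposited with limma 3.58.1 in R 4.3.3 (statmod 1.5.0), as group means with a trended empirical Bayes prior, and p-values were adjusted over all 19324 probe sets by the Benjamini-Hochberg method, with a call under 0.05. The design was checked on simulated data. The members, lists and comparisons were chosen with earlier results of these data known. The 9 genes were named in every comparison, with up to 2 called genes of each list with the largest positive and negative differences, and the 5 genes most like the mean profile.

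Replicate numbers were not taken to pair arrays: same-numbered arrays correlated at a median of 0.080 in apices, -0.012 in primordia and 0.015 in leaves in their deviations from group means. Alternatives were quantile normalization, other probe set filters and priors, array weights, a replicate block and removal of the gene length trend (10891 probe sets with a length). Others were leaving out the arrays of 1 replicate number in all groups, fits of the compared groups alone and fits within experiments. Over all comparisons, removal of the length trend lost 7 calls with the sign kept, gained 2 and turned the sign of 6 differences. Promoter motifs and the protein alignment of AUR1 and AUR2 were not analysed here.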

Additional observations from a re-analysis of the deposited data

Results flagged for a closer look

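In primordia the change from leaves 1/2 to leaf 11 differed between genotypes by a test of the difference itself, being lower in FRI;flc-3 than in FRI;FLC plants by 0.45 log2 units for AUR1 (-0.447), by 0.71 for POLA3 (-0.707) and by 1.14 for BUB3.2 (-1.14). The difference between primordia and expanded leaves also differed between genotypes by such a test, being larger in FRI;flc-3 plants by 0.52 log2 units for HTB2 (0.522) and by 0.76 for POLA3 (0.758). Of all probe sets 19.6% were called in the first comparison and 19.2% in the second, the latter close to the share of the 9 genes. The calls of the first were lost without replicate 3, and so was that of POLA3 in the second. Both include leaf 11, which was cauline in FRI;flc-3 plants.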

How the results depend on the processing

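Counted per gene, comparison and alternative, 2002 results kept their direction and side of the threshold, 94 lost their call, 38 gained one and 66 changed sign, 4 of them among the called differences. Those 4 were PRL from day 4 to 11 in FRI;FLC apices with the length trend removed (-0.052), and within experiment 1 PRL between genotypes in expanded leaves (0.0070), AUR1 at leaf 11 (0.479) and 3xHMG-box2 with leaf position (0.303). Restricting the fit to probe sets above the median signal left 2 of the 9 genes tested, by construction. The calls were then 2 for FRI;FLC apices from day 4 to 11, from day 11 to 21, both organ contrasts, the cauline leaf, expanded leaf position, past expansion in FRI;flc-3 and FRI;FLC primordia by position. They were 1 for FRI;flc-3 apices, genotype in expanded leaves, FRI;flc-3 primordia by position and the organ difference between genotypes, and 0 for the mimic line, past expansion in FRI;FLC, genotype in primordia, at leaf 11 and by position.

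The mimic line's 1 call became 0 with array weights, without the length trend, with the compared groups alone and with control days 4 and 9, and 0 to 3 with a replicate left out. Array weights, whose estimation did not fully converge in every fit, gave 4 calls past expansion in FRI;FLC, 3 for its difference between genotypes and 4 for the organ difference between genotypes. That past expansion difference had 1 call with the replicate block and 1 with the compared groups alone. Genotype in primordia had 1 call under quantile normalization, single-gene probe sets, no prior trend, a robust prior and the replicate block. The block changed no other count of calls by over 1.5 times. Genotype in expanded leaves had 2 calls within experiment 1 and, in settings chosen after seeing the data, 3 in leaves 3, 5 and 7 of equal days and 3 without leaf 9. Leaf 9 in place of leaf 11 gave 1 call for position by genotype.
With a replicate left out, calls ran from 3 to 4 for genotype in expanded leaves, from 1 to 2 past expansion in FRI;FLC and from 4 to 6 in FRI;flc-3, and from 0 to 2 for their difference. They ran from 0 to 1 for genotype in primordia and at leaf 11, from 1 to 2 for FRI;flc-3 primordia by position, from 0 to 2 for position by genotype and from 1 to 3 for the organ difference between genotypes. The causes were not tested. Low signals in leaves limit what changes between leaf stages can be seen.

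Differences that were not called and stayed so had the other sign in 62 cases. Under quantile normalization they were -0.0028 for AUR1 (genotype in primordia), 0.016 for TOPII (position by genotype in primordia) and 0.060 for HTB2 (genotype in primordia of leaf 11). With array weights they were 0.011 for HTR12 (past expansion in FRI;FLC), -0.0094 for AUR1 (genotype in primordia), 0.0013 for HTB2 and -0.020 for PRL (genotype in primordia of leaf 11) and -0.058 for AUR2 and -0.028 for TOPII (the organ difference by genotype). Without the length trend they were 0.038 for AUR2 (genotype in apices), -0.11 for TOPII (genotype in expanded leaves), -0.0037 for AUR1 (genotype in primordia) and 0.094 for HTB2 and -0.064 for PRL (genotype in primordia of leaf 11). Within experiment 1 they were 0.18 for AUR2 (the cauline leaf). Within experiment 2 they were -0.017 for TOPII and -0.29 for 3xHMG-box2 (genotype in expanded leaves). With control days 4 and 9 they were 0.11 for HTR12 and -0.34 for BUB3.2 (the mimic line). In leaves 3, 5 and 7 of equal days they were -0.23 for 3xHMG-box2 (genotype in expanded leaves). With leaf 9 in place of leaf 11 they were -0.11 for HTB2 (position by genotype in primordia). With a replicate left out, ranges that crossed 0 were as follows. For the age change by genotype in apices the range was -0.058 to 0.60 for AUR1, -0.11 to 0.74 for TOPII, -0.086 to 0.36 for POLA3 and -0.17 to 0.29 for BUB3.2. For genotype in apices the range was -0.082 to 0.076 for AUR2, -0.040 to 0.18 for 3xHMG-box2 and -0.085 to 0.0015 for BUB3.2. For the mimic line the range was -0.36 to 2.03 for TOPII, -0.17 to 2.15 for 3xHMG-box2, -0.28 to 0.55 for HTB2 and -0.32 to 0.16 for POLA3. For genotype in expanded leaves the range was -0.0023 to 0.022 for TOPII and -0.096 to 0.19 for 3xHMG-box2. For past expansion in FRI;FLC the range was -0.47 to 0.16 for HTR12 and -0.43 to 0.086 for HTB2. For past expansion by genotype the range was -0.28 to 0.15 for AUR2, -0.23 to 0.047 for TOPII, -0.36 to 0.19 for 3xHMG-box2 and -0.37 to 0.089 for PRL. For genotype in primordia the range was -0.015 to 0.011 for AUR1, -0.075 to 0.068 for AUR2, -0.088 to 0.012 for HTB2, -0.12 to 0.056 for POLA3 and -0.067 to 0.045 for PRL. For position in FRI;FLC primordia the range was -0.11 to 0.27 for PRL. For position in FRI;flc-3 primordia the range was -0.13 to 0.11 for 3xHMG-box2. For position by genotype in primordia the range was -0.39 to 0.29 for TOPII and -0.15 to 0.20 for HTB2. For genotype in primordia of leaf 11 the range was -0.26 to 0.0014 for 3xHMG-box2, -0.043 to 0.058 for HTB2 and -0.050 to 0.13 for PRL. For the organ difference by genotype the range was -0.21 to 0.078 for AUR1, -0.065 to 0.12 for AUR2 and -0.067 to 0.39 for 3xHMG-box2.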
